A study of Mus with 21 samples.

Results

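The comparison described here set 3 Nipbl+/- brains against 5 WT brains, 8 of the 21 libraries of the series, and asked which genes change when 1 of the 2 copies of Nipbl is lost in the embryonic mouse brain. Every library was made from poly(A) RNA of the whole brain of a female embryo at E17.5 on a C57BL/6J background. The labels give the genotype Wapl +/+; Nipbl +/+ for WT and Wapl +/+; Nipbl +/delta for Nipbl+/-, so that both groups carry intact Wapl. According to the study's methods, the Nipbl- allele came from sires that carried a floxed Nipbl allele and Cre driven by Stra8 in premeiotic male germ cells, so it is present in all cells of the embryo and is inherited through the father. The labels give no litters or dates, and whether the embryos inherited the Cre transgene is not given there. No litter can be matched to a library, so P values measure the spread between these embryos, which may share litters. The other 13 libraries, from 7 Wapl heterozygotes and 6 double heterozygotes, were used only to look at the same Nipbl allele in a second genetic background.

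Cohesin is a ring of SMC1, SMC3, RAD21 and a STAG subunit that holds sister chromatids together and also extrudes loops of DNA, which brings distant enhancers and promoters of a chromosome into contact until the ring is stopped by CTCF. NIPBL, with its partner MAU2, loads the ring and drives extrusion, whereas WAPL and PDS5 release it. Loss of a single NIPBL copy causes Cornelia de Lange syndrome, with growth deficiency, limb and organ defects and intellectual disability, and heterozygous mice show much of it and die around birth. Brain is of particular interest because the clustered protocadherins, cell surface adhesion proteins that give neurons their individual identity, are among the genes best known to need cohesin and CTCF for the choice of promoter.

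Depth was similar between the groups, with gene totals of 30605697 to 35818767 reads in the WT libraries and of 30059079 to 32426068 reads in the Nipbl+/- libraries. Counts are given after normalization for library composition by TMM, and replicates carry the numbers of the labels. Of the single libraries that stood apart, the one that touches most results is Nipbl+/- replicate 1. It held a summed 207 normalized counts of Hox genes of groups 4 to 13, which mark hindbrain and spinal cord, against 1466 to 2775 in WT libraries and 1877 and 2554 in Nipbl+/- replicates 2 and 3. Transcripts that resemble ribosomal RNA (Gm42418, AY036118, CT010467.1, Gm26917 and Lars2) summed to 46092 normalized counts in WT replicate 1 and 623243 in Nipbl+/- replicate 3, against 120982 to 280129 in the other 6 libraries. Counts of the mitochondrial gene mt-Nd3 were 3, 6, 1, 83 and 75 in WT replicates 1 to 5 and 4, 3 and 1 in the Nipbl+/- replicates, so that only WT replicates 4 and 5 belong to the set of libraries with high counts, and the groups can be compared within the low set as 3 against 3. Counts of calls without Nipbl+/- replicate 1 and within the low set are therefore given beside the main ones. All 8 libraries held transcripts of the neuronal tubulin Tubb3, with 57788 to 63421 normalized counts.

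Of the 30552 genes tested, 3422 were called at a Benjamini-Hochberg adjusted P below 0.10, or 11.2% of all tested genes. The 1297 genes called higher in Nipbl+/- brains were 4.25% of all tested genes, and the 2125 called lower were 6.96%. Most changes were small, the median size among called genes being 0.24 on the log2 scale, with a median log2 fold change of -0.01 over all tested genes. For 2571 of the called genes (75.1%) every Nipbl+/- library lay on one side of every WT library, which was so for 13.4% of all tested genes. Without Nipbl+/- replicate 1 there were 1828 calls (5.98% of all tested genes), of which 672 were higher (2.2%) and 1156 lower (3.78%). Within the low mt-Nd3 set there were 1881 (6.16%), of which 548 were higher (1.79%) and 1333 lower (4.36%). Without Nipbl+/- replicate 2 the number was 4788. Calls depended on the level of a gene, since 0.524% of the genes under 0.1 CPM (the count scaled to library size) were called and 28.0% of those with at least 100 CPM.

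**Figure D1:**
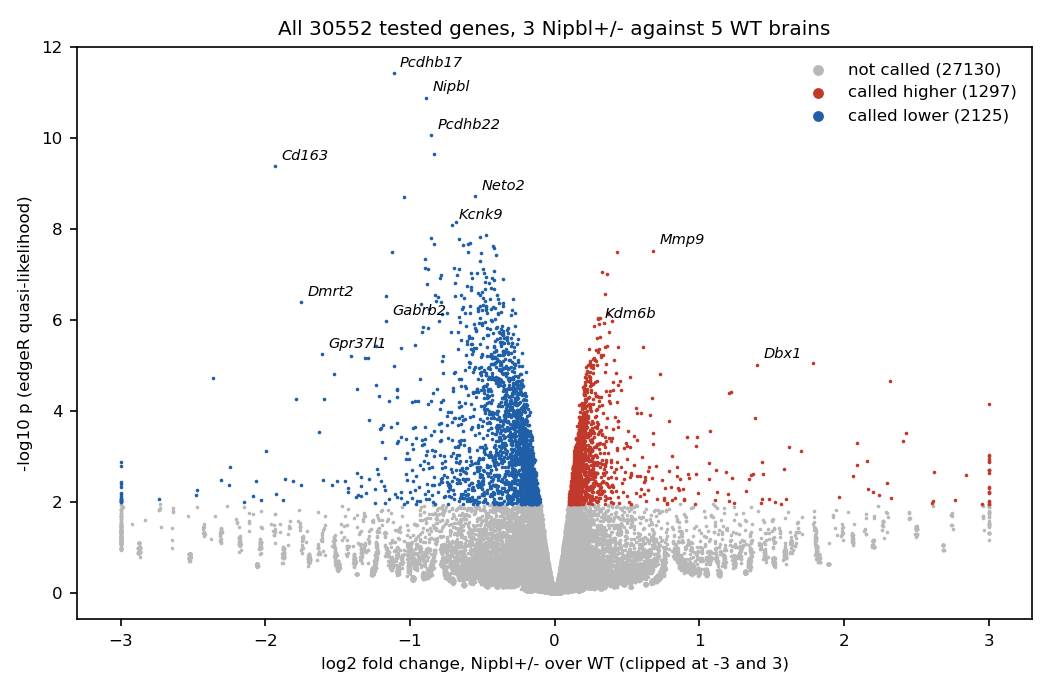
Each point is 1 of the 30552 tested genes, with the log2 fold change of Nipbl+/- over WT on the horizontal axis (clipped at -3 and 3) and -log10 of the unadjusted P from edgeR's quasi-likelihood test on the vertical axis. Genes called higher (1297) are red, genes called lower (2125) blue and the others grey, and the points with the smallest P, led by Pcdhb17, Nipbl and Pcdhb22, are on the lower side.

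Nipbl itself, on chromosome 15 of GRCm38 from 8289824 to 8465315, had 2402, 2147, 2019, 2041 and 2221 normalized counts in the 5 WT brains and 1136, 1104 and 1287 in the 3 Nipbl+/- brains. The groups did not overlap, and the mutant mean was 54.3% ± 4.52 (SD, n = 3) of the WT mean (log2 fold change -0.89, standard error 0.0589, edgeR adjusted P = 1.95e-07). Its loading partner Mau2 was not called (log2 fold change -0.02, edgeR adjusted P = 0.838), nor was the release factor Wapl (-0.11, adjusted P = 0.219 in the same fit). Among the 5 genes of the ring, Stag2 was called lower (-0.16, adjusted P = 0.081), a call that was lost in 6 of the 8 fits that left out a library, and Smc1a, Smc3, Rad21 and Stag1 lay between -0.02 and 0.10 on the log2 scale without a call. Pds5b, which helps WAPL to release cohesin and to keep chromatids together, was the second gene of the loading and release list to fall. It had 3799, 3707, 3320, 3275 and 3482 normalized counts in WT and 2451, 2939 and 2895 in Nipbl+/- brains, with no overlap (log2 fold change -0.35, standard error 0.059, edgeR adjusted P = 0.00112), and the call held in all 8 fits that left out a library. The remaining members of that list (Pds5a, Esco1, Esco2, Cdca5, Hdac8 and Ctcf among them) lay between -0.11 and 0.26 with no call. Of 10 genes mutated in syndromes that resemble Cornelia de Lange syndrome, the histone methyltransferase Ehmt1 rose by 0.14 and Taf6, a TFIID subunit, by 0.14, while Taf1, the largest TFIID subunit, fell by 0.21. The Ehmt1 call held in all 8 fits that left out a library, the Taf1 call was lost without Nipbl+/- replicate 1 (at -0.13), and the Taf6 call was lost in 4 fits, those without WT replicate 1 or 3 and without Nipbl+/- replicate 1 or 3.

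The clustered protocadherins of the beta group were lower almost throughout. All 22 were tested and 21 were called lower (21 without Nipbl+/- replicate 1 and 19 within the libraries of few mt-Nd3 counts), with a list median log2 fold change of -0.79. Each beta gene is a single coding exon with its own promoter, so its reads can be assigned to it, although the genes are close paralogs. Pcdhb17, the gene with the smallest P of the comparison, had 761, 629, 672, 684 and 642 normalized counts in WT and 301, 328 and 314 in Nipbl+/- brains. All 3 mutants were thus below every WT brain by a wide margin (log2 fold change -1.11, standard error 0.0686, edgeR adjusted P = 1.12e-07). Pcdhb22 had 627, 598, 666, 635 and 579.9 normalized counts in WT and 331, 362 and 343 in Nipbl+/- brains (log2 fold change -0.85, standard error 0.0635, edgeR adjusted P = 8.79e-07). Similar decreases were seen in Pcdhb20 (-0.84), Pcdhb19 (-1.04), Pcdhb21 (-1.17) and Pcdhb16 (-1.13), as log2 fold changes. The weakest called member, Pcdhb5, fell by 0.39, and the only one not called was Pcdhb1, which had at most 5.13 normalized counts in any library. Summed over the 22 genes, the WT brains held 5617, 5248, 5053, 5404 and 5321 normalized counts and the Nipbl+/- brains 3053, 3269 and 3110. Unlike most lists below, the 3 mutants were close to each other here, with list medians of -0.80, -0.77 and -0.83 on the log2 scale relative to WT.

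For the alpha and gamma groups the table does not separate the members, because their transcripts share constant exons. The 14 rows of the alpha group differed by at most 1.21-fold within any of the 8 libraries and the 22 rows of the gamma group by at most 1.25-fold, so each set of rows amounts to 1 measurement. All 14 alpha rows were called lower, at -0.21 to -0.18, but Nipbl+/- replicate 2 lay within the WT range, and the calls by edgeR were 9 without WT replicate 1, 1 without Nipbl+/- replicate 1, 0 without Nipbl+/- replicate 3 and 1 within the low mt-Nd3 set. Of the 22 gamma rows 0 were called by edgeR or DESeq2 and 0 had an unadjusted P below 0.05, and all lay between 0.02 and 0.04.

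The non-clustered protocadherins, adhesion proteins with roles in axon growth and cell sorting, were mostly lower as well. Among the 10 tested members, 7 were called lower and none higher (median -0.45), and the same number was called without Nipbl+/- replicate 1 and within the low mt-Nd3 set. Pcdh17 had 5295, 4928, 4866, 4701 and 5152 normalized counts in WT and 3187, 3860 and 3437 in Nipbl+/- brains (log2 fold change -0.52, standard error 0.0535, edgeR adjusted P = 3.82e-05). Pcdh7 had 3044, 2869, 2596, 2604 and 2688 in WT and 1580, 2026 and 1753 in the mutants (log2 fold change -0.63, standard error 0.0669, edgeR adjusted P = 3.94e-05). In both genes replicate 2 was the mutant nearest to WT but still below every WT brain. The other called members were Pcdh19 (-0.52), Pcdh11x (-0.63), Pcdh10 (-0.41), Pcdh20 (-0.49) and Pcdh9 (-0.34), and Pcdh8, Pcdh1 and Pcdh18 were not called. In the 22 tested classical and type II cadherins, 8 were lower and 2 higher. The members with the smallest P were Cdh6, Cdh12 and Cdh10, type II cadherins of distinct neuronal populations, which fell by 0.49, 0.61 and 0.38, while Cdh24 rose by 0.27 (edgeR adjusted P = 0.00183).

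Receptors for neurotransmitters were lower in many of their members. Of the 11 AMPA, kainate and delta receptor subunits, 9 were called lower (median -0.19; 6 without Nipbl+/- replicate 1 and 6 within the libraries of few mt-Nd3 counts), among them Gria2, the subunit that sets the calcium permeability of AMPA receptors, at -0.35, adjusted P = 0.00192 by edgeR, and the kainate receptor subunit Grik2 at -0.29. Of 7 NMDA receptor subunits, Grin3a, Grin2a and Grin2b were called lower. Grin3a, a subunit of juvenile receptors, had 3720, 3738, 3317, 3552 and 3580 normalized counts in WT and 1920, 2599 and 2287 in Nipbl+/- brains (log2 fold change -0.66, standard error 0.0688, edgeR adjusted P = 3.82e-05). Grin2a and Grin2b fell by 0.66 and 0.36, whereas the obligatory subunit Grin1 was at -0.11 (edgeR adjusted P = 0.276), with replicate 2 inside the WT range. The metabotropic receptors had 5 of 8 members lower, led by Grm5, with 3917, 3509, 3181, 3221 and 3436 normalized counts in WT and 1808, 2501 and 2113 in the mutants (log2 fold change -0.69, standard error 0.0796, edgeR adjusted P = 7.3e-05). Auxiliary subunits that escort AMPA and kainate receptors were mixed, with 6 of 13 lower and 1 higher (Cacng7, 0.12), a call lost without WT replicate 2 and within the low mt-Nd3 set. Neto2, which modulates kainate receptors, had 5072, 4743, 4531, 4718 and 4489 normalized counts in WT and 2974, 3469 and 3237 in Nipbl+/- brains (log2 fold change -0.55, standard error 0.0497, edgeR adjusted P = 8.44e-06), and the AMPA receptor regulator Shisa6 fell by 0.79.

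Among the 19 subunits of the GABA-A receptor, 12 were called lower and none higher (median -0.39; 9 without Nipbl+/- replicate 1 and 9 within the libraries of few mt-Nd3 counts). Gabrb2 showed the largest decrease of the called subunits, with 1261, 1134, 899, 875 and 996 normalized counts in WT and 278, 511 and 603 in Nipbl+/- brains, the lowest value being that of replicate 1 (log2 fold change -1.16, standard error 0.161, edgeR adjusted P = 0.000273). Gabra5, a subunit of receptors outside the synapse, fell by 0.50. Of 19 receptors for serotonin and dopamine, 8 were lower and none higher (median -0.41). Htr1a, the inhibitory serotonin autoreceptor, had 300.3, 301, 293, 301 and 281 normalized counts in WT and 149, 189 and 160 in Nipbl+/- brains (log2 fold change -0.83, standard error 0.088, edgeR adjusted P = 3.94e-05). Htr1b, Htr2a and the dopamine receptor Drd1 fell by 0.53, 0.49 and 0.46. The 90 potassium channel genes included 30 called lower and 1 higher (14 without Nipbl+/- replicate 1 and 20 within the libraries of few mt-Nd3 counts were lower). Kcnk9, a leak channel that is imprinted in brain, had 2959, 2605, 2482, 2608 and 2824 normalized counts in WT and 1414, 1861 and 1687 in the mutants (log2 fold change -0.71, standard error 0.0704, edgeR adjusted P = 2.8e-05). Voltage-gated sodium and calcium channels moved in both directions, with 10 of 32 lower, such as Cacna2d1 (-0.36), and 4 higher, such as the beta subunit Cacnb3 (0.17), and the lower count was 4 without Nipbl+/- replicate 1, 5 without Nipbl+/- replicate 3, 6 without WT replicate 1 or 5 and 16 without Nipbl+/- replicate 2.

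**Figure D2:**
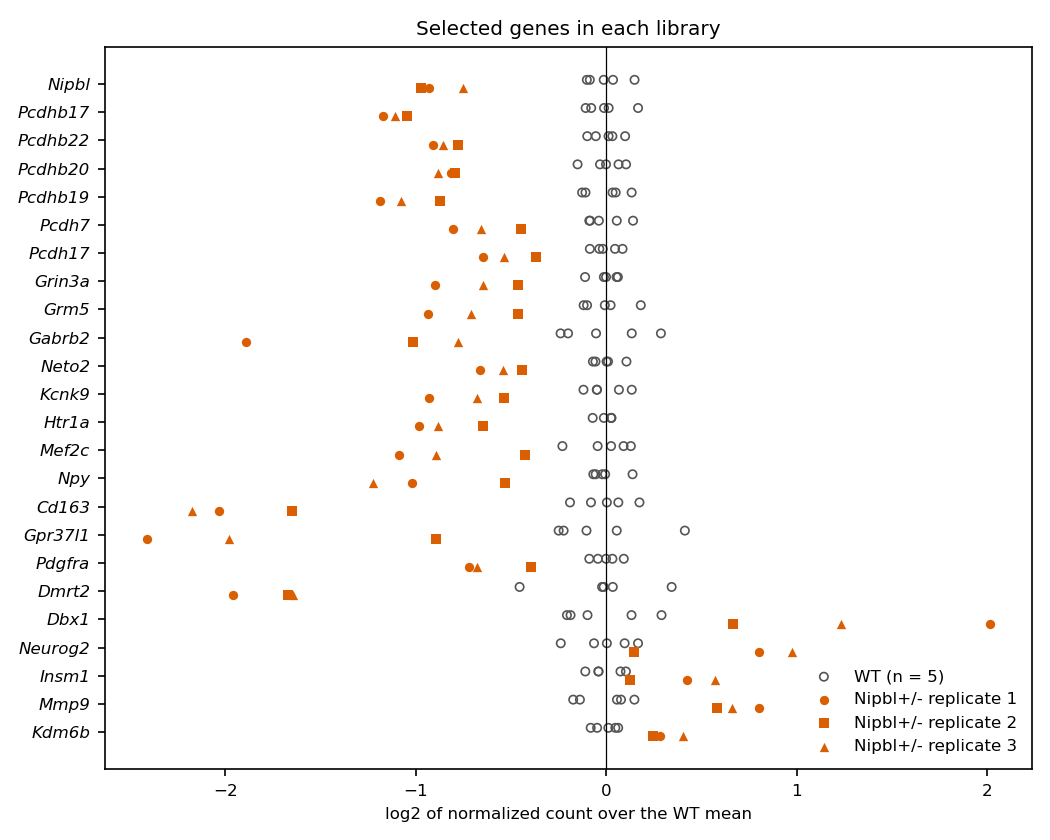
Log2 of the normalized count over the WT mean for 24 genes named in the text, with the 5 WT brains as open circles and the 3 Nipbl+/- brains as filled symbols by replicate. The mutants lie apart from WT for every gene but Neurog2, where replicate 2 falls inside the WT range. This follows in part from the choice of called genes, some of them named on condition that the groups were separate. The groups were separate for 75.1% of called genes and 13.4% of all tested genes. Replicate 2 is the mutant nearest to WT in most rows, but not in Nipbl.

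Every called gene of the presynaptic list was lower. Of 62 genes of synaptic vesicles and release, 31 were called lower and 0 higher by edgeR (median -0.15, with 58 of 62 below 0). The count was 18 without Nipbl+/- replicate 1 and 17 within the libraries of few mt-Nd3 counts, 18 without Nipbl+/- replicate 3 and 49 without Nipbl+/- replicate 2, where 1 was higher. Syt4, a synaptotagmin of dense-core vesicles, fell by 0.42 (edgeR adjusted P = 8.84e-05), and the vesicle glycoproteins Sv2b and Sv2c by 0.50 and 0.57. Of 66 synapse organizers, which align the sending and receiving sides of a synapse, 35 were lower and 3 higher (median -0.19; 28 without Nipbl+/- replicate 1 and 31 within the libraries of few mt-Nd3 counts were lower), and the higher count was 1 without WT replicate 2 or 4 or Nipbl+/- replicate 2 or 3 and 7 by DESeq2. Cntnap4, a neurexin family member of interneurons, had 1374, 1379, 1262, 1289 and 1293 normalized counts in WT and 1000, 988 and 986 in Nipbl+/- brains (log2 fold change -0.42, standard error 0.0447, edgeR adjusted P = 4.11e-05). The groups did not overlap in Cntnap4, and the mutants were nearly equal. Slitrk4, Tenm1 and Cbln2 fell by 0.61, 0.44 and 0.28. On the receiving side, 6 of 19 scaffold genes were lower, such as Homer2 (-0.52) and Dlg2 (-0.43), and 2 were higher. Among the 10 genes with the smallest P of the comparison was also Sphkap, an anchor of protein kinase A, with 2590, 2654, 2295, 2393 and 2567 normalized counts in WT and 1362, 1770 and 1558 in the mutants (log2 fold change -0.68, standard error 0.0669, edgeR adjusted P = 2.66e-05), and the axonal adhesion molecule Alcam (-0.47, edgeR adjusted P = 3.82e-05).

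**Figure D3:**
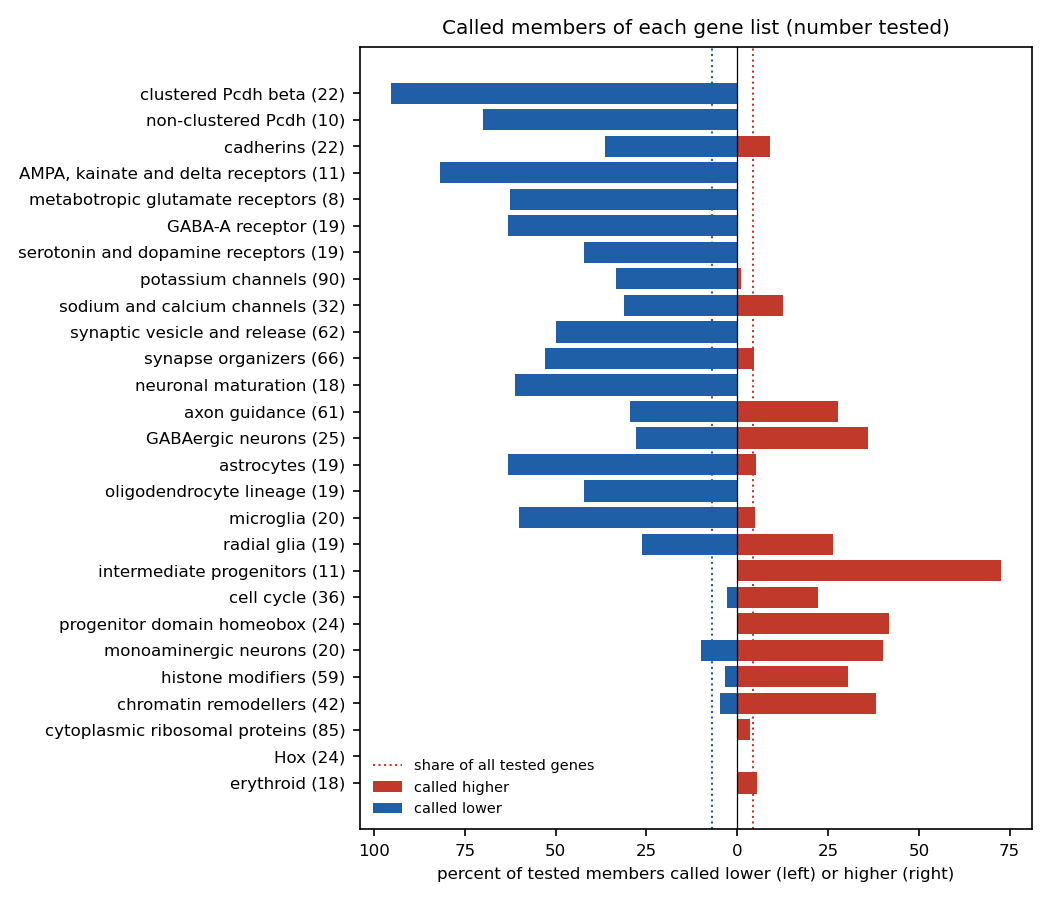
Percent of the tested members of 27 gene lists called lower (blue, to the left) or higher (red, to the right) in Nipbl+/- brains, with the number tested in parentheses and dotted lines at the shares among all tested genes (6.96% lower, 4.25% higher). Among genes with at least 1 CPM, which are called more often, 12.1% were lower and 7.23% higher. Bars to the left are longest for the beta protocadherins (95.5%), the AMPA, kainate and delta receptors (81.8%) and the non-clustered protocadherins (70.0%), and bars to the right for intermediate progenitors (72.7%) and progenitor homeobox genes (41.7%).

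Genes that accompany the maturation of neurons were mostly lower. In bulk RNA fewer cells of a type and less RNA per cell cannot be told apart, which holds for every list of cell markers. Of 18 maturation genes, 11 were called lower and none higher (median -0.27; 10 without Nipbl+/- replicate 1 and 9 within the libraries of few mt-Nd3 counts). The neurofilament gene Nefm had 10434, 10025, 10854, 10044 and 10445 normalized counts in WT and 8576, 8584 and 8427 in Nipbl+/- brains (log2 fold change -0.29, standard error 0.0365, edgeR adjusted P = 0.000148). Nefl fell by 0.27, the calcium buffer Calb1 by 0.59, and the surface glycoprotein Thy1 by 0.69, with 737, 1217 and 722 normalized counts in replicates 1 to 3 against 1469, 1367, 1415, 1550 and 1390 in WT. Replicate 2 was closest to WT in Thy1, yet still below all WT brains. Of 19 regulators of cortical projection neurons, 6 were lower and 2 higher. Mef2c, an activity-dependent transcription factor whose loss causes intellectual disability, had 7242, 6739, 6417, 7053 and 5645 normalized counts in WT and 3119, 4931 and 3565 in the mutants (log2 fold change -0.78, standard error 0.105, edgeR adjusted P = 0.000213). Etv1 and Nr4a2, factors of corticofugal and deep layer neurons, fell by 0.52 and 0.36, and the patterning factor Lhx2 rose by 0.20.

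Genes of inhibitory neurons moved in both directions. Of 25 genes of the GABAergic list, 9 were higher and 7 lower (3 and 5 without Nipbl+/- replicate 1). Those lower with the smallest P were the neuropeptides Npy (-0.90), Cck (-0.57) and Sst (-0.24) and the secreted positioning protein Reln (-0.42). Sp9 (0.41), a transcription factor of migrating and immature interneurons, was 1 of the 9 called higher. The others called higher are not named here, so these members do not show how the list divides by maturity. Npy had 836, 846, 817, 934 and 809.8 normalized counts in WT and 418, 586 and 364 in Nipbl+/- brains (log2 fold change -0.90, standard error 0.103, edgeR adjusted P = 7.3e-05). Over the 25 neuropeptide genes tested, 6 were lower and none higher (median -0.22, the same count without Nipbl+/- replicate 1 and within the low mt-Nd3 set). Besides Npy and Sst, these were neurotensin (Nts, -0.92), the antidiuretic hormone (Avp, -0.88), the opioid precursor Penk (-0.51) and Adcyap1 (-0.42).

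Genes of intermediate progenitors, the dividing cells between radial glia and neurons, were higher where called. Of 11 genes of intermediate progenitors, 8 were called higher and none lower (median 0.33; 5 without Nipbl+/- replicate 1 and 4 within the libraries of few mt-Nd3 counts). Neurog2, the proneural factor of cortical progenitors, had 424, 379, 361, 320.1 and 404 normalized counts in WT and 658, 418 and 743 in Nipbl+/- brains. Replicates 1 and 3 were above every WT brain, while replicate 2 fell within the WT range (log2 fold change 0.67, standard error 0.127, edgeR adjusted P = 0.00286). Insm1 had 1171, 1060, 1059, 1010 and 1148 in WT and 1460, 1190 and 1621 in the mutants (log2 fold change 0.38, standard error 0.0724, edgeR adjusted P = 0.00314), and Gadd45g and Mfng rose by 0.46 and 0.44. Eomes, the defining factor of these cells, rose by 0.33 but lost its call without Nipbl+/- replicate 1 or 3. Of 36 cell cycle genes, 34 had a positive log2 fold change but only 8 were called higher and 1, Ccnd1 (-0.20), lower. The higher count was 0 by edgeR without replicate 1 (4 at an unadjusted P below 0.05) and 29 without replicate 2, and Plk1 (0.28) and Birc5 (0.35) lost their calls without replicate 1 (Birc5 was then at 0.20). Relative to WT, list medians in replicates 1, 2 and 3 were 0.42, 0.09 and 0.45 on the log2 scale for intermediate progenitors and 0.28, -0.12 and 0.24 for the cell cycle, where single WT libraries lay between -0.15 and 0.12 and between -0.06 and 0.07. Replicate 2 was therefore within the WT spread for the first list and below it for the second.

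Genes of radial glia, the stem cells of the embryonic brain, moved both ways, with 5 higher and 5 lower of 19 (3 higher without Nipbl+/- replicate 1 and 10 without Nipbl+/- replicate 2). Notch1 rose by 0.33 (edgeR adjusted P = 0.000772). The members called lower were Slc1a3 (-0.37), Hopx (-0.67), Ptprz1 (-0.37), Fabp7 (-0.26, or -0.16 without Nipbl+/- replicate 3) and Tnc (-0.18). Over the list the median was 0.08, with 12 of 19 above 0. The others called higher are not named here, so these members do not show how the list divides by cell type. Among markers of newborn neurons, 3 of 13 were higher, Sox11 (0.23) and Nhlh1 (0.42) among them, with 0 called by edgeR without Nipbl+/- replicate 1 (an unadjusted P below 0.05 was reached by 4 above and 1 below WT) and 5 higher without Nipbl+/- replicate 2. Of 24 homeobox factors that divide the neural tube into progenitor domains, 10 were higher and none lower (median 0.25, or 0.15 without Nipbl+/- replicate 1). The count was 3 without Nipbl+/- replicate 1, 6 without WT replicate 1 or 4, 5 without WT replicate 2 and 3 within the low mt-Nd3 set. Dbx1, which marks progenitors of interneurons and of the first cortical neurons, had 45.7, 32.8, 32.4, 34.9 and 41.0 normalized counts in WT and 151, 59.3 and 88.0 in Nipbl+/- brains, with replicate 1 highest and replicate 2 lowest of the mutants but above every WT brain. Otx1, Pax7 and Irx3 rose by 0.31, 0.31 and 0.48 (Irx3 was at 0.30 with no call without Nipbl+/- replicate 1). The Dmrt factors, of which several act in cortical progenitors, opposed each other, since Dmrt2 fell from 45.7, 33.9, 58.9, 47.5 and 46.0 to 11.9, 14.6 and 14.8 normalized counts (-1.75) and Dmrt3 rose from 22.4, 28.7, 30.4, 30.1 and 28.0 to 47.7, 47.6 and 49.8 (0.79, adjusted P = 0.0063 by edgeR). Both groups of values were separate in each gene, and Dmrta2 and Dmrtb1 were higher by 0.49 and 0.44, the Dmrta2 call being lost without Nipbl+/- replicate 1.

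Of 20 genes of monoaminergic neurons, 8 were higher and 2 lower, and the higher count ranged from 3 to 9 when single libraries were left out, with 3 without WT replicate 2, 4 without Nipbl+/- replicate 1 and 5 without WT replicate 1, 4 or 5. Gata2 and Gata3, transcription factors of serotonergic and of some inhibitory neurons, rose by 0.38 and 0.40, while the dopamine transporter Slc6a3 fell by 0.53. Of 14 striatal genes, 4 were higher and 3 lower, and the higher count was 2 without WT replicate 1, 2 or 4 or Nipbl+/- replicate 1 or 3, while the lower count was 5 without Nipbl+/- replicate 2. The factors Six3 and Zfp503 rose by 0.36 and 0.35 (Six3 by 0.22 without Nipbl+/- replicate 1), and Penk and Drd1, products of differentiated striatal neurons, were lower as given above. Other called striatal genes are not named here, so these members do not show how the list divides by maturity. Of 20 cerebellar genes, 4 were higher, such as Lhx5 (0.45), a factor of early Purkinje cells, and 3 lower (2 and 2 without WT replicate 2 or Nipbl+/- replicate 1), with a median of 0.02. Axon guidance genes divided evenly, with 17 higher and 18 lower of 61 (median -0.03). The higher count was 10 without Nipbl+/- replicate 1 or 3. The 6 with the smallest P were all lower, including the semaphorin Sema3c, with 1811, 1756, 1746, 1638 and 1723 normalized counts in WT and 932, 1294 and 1209 in Nipbl+/- brains (log2 fold change -0.60, standard error 0.0737, edgeR adjusted P = 0.000105), the netrin receptor Unc5c (-0.36) and the semaphorin receptor Plxna4 (-0.38).

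**Figure D4:**
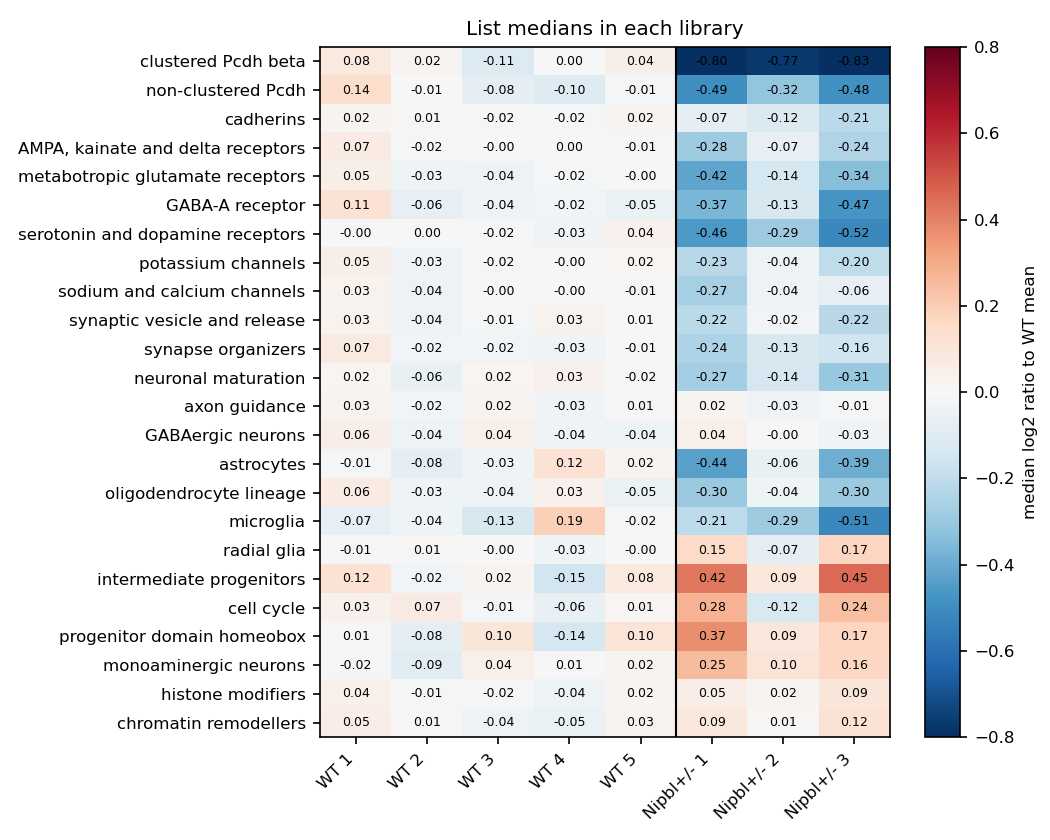
Each cell gives the median, over the tested members of a list (rows), of the log2 ratio of a library (columns) to the mean of the WT libraries, or of the other 4 for a WT library, with 0.5 added to counts. The 5 WT columns lie near 0, and the 3 Nipbl+/- columns run from -0.83 for the beta protocadherins to 0.45 for intermediate progenitors, with replicate 2 nearest to 0 in most rows.

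Many glial genes were lower. Of 19 astrocyte genes, 12 were called lower and 1 higher (median -0.28; 8 without Nipbl+/- replicate 1 and 7 within the libraries of few mt-Nd3 counts). Gpr37l1, a receptor of astrocytes and their precursors, had 82.5, 73.9, 66.8, 106 and 68.0 normalized counts in WT and 14.9, 42.8 and 20.1 in Nipbl+/- brains (-1.61). The water channel Aqp4 had 1208, 1110, 1069, 1260 and 1135 in WT and 491, 1013 and 502 in the mutants, with replicates 1 and 3 far below the lowest WT value and replicate 2 just below it (log2 fold change -0.79, standard error 0.157, edgeR adjusted P = 0.00415). Without Nipbl+/- replicate 2 the fold change of Aqp4 was -1.23. Gja1 and Glul fell by 0.35 and 0.25 (Gja1 was at -0.23 without Nipbl+/- replicate 3). In the oligodendrocyte lineage 8 of 19 genes were lower and none higher (median -0.19; 6 without Nipbl+/- replicate 1 and 6 within the libraries of few mt-Nd3 counts). Pdgfra, the growth factor receptor of oligodendrocyte precursors, had 2472, 2530, 2326, 2637 and 2400 normalized counts in WT and 1500, 1880 and 1544 in Nipbl+/- brains (log2 fold change -0.60, standard error 0.0628, edgeR adjusted P = 3.94e-05), and the later markers Bcas1 and Gpr17 fell by 0.45 and 0.52. List medians in replicates 1, 2 and 3 were -0.44, -0.06 and -0.39 for astrocytes and -0.30, -0.04 and -0.30 for the oligodendrocyte lineage, and replicate 2 lay within the WT spread in both.

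Markers of the brain's immune cells were lower in part. Of 20 microglial genes, 12 were called lower and 1 higher (9 without Nipbl+/- replicate 1 and 7 within the libraries of few mt-Nd3 counts, and 6 without Nipbl+/- replicate 3), and the median was -0.32. Fcrls had 334, 274, 279, 378 and 342 normalized counts in WT and 158, 217 and 153 in Nipbl+/- brains (log2 fold change -0.87, standard error 0.124, edgeR adjusted P = 0.00033), the fractalkine receptor Cx3cr1 fell by 0.59, and the purinergic receptor P2ry12 by 0.69. Cd163, a haemoglobin scavenger receptor of macrophages at the borders of the brain, had the largest decrease of the called genes that reached 1 CPM and whose groups were separate (log2 fold change -1.93, standard error 0.158, edgeR adjusted P = 2.49e-06). It had 110.3, 96.5, 104, 124 and 115 normalized counts in WT and 26.8, 35.0 and 24.4 in the mutants, so each mutant held less than the lowest WT brain by a wide margin. Other defining genes of these macrophages gave different values. Lyve1 was at -0.19 and Pf4 at -0.16 with no call (edgeR adjusted P = 0.372 and 0.591), Mrc1 fell by 0.35 (-0.21 without Nipbl+/- replicate 3), Ms4a7 fell by 1.18 with a call lost without Nipbl+/- replicate 3, and Siglec1 rose by 0.60 with a call lost in 4 of the 8 fits that left out a library (0.39 without Nipbl+/- replicate 1). Over the 11 genes, 3 were lower and 1 higher, and their summed normalized counts were 3505 to 3917 in WT and 3865, 3382 and 2991 in the mutants.

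Lists of other tissues had few calls in number, and their shares lay on either side of those of expressed genes. Of all tested genes 4.25% were higher and 6.96% lower, and of genes with at least 1 CPM 7.23% and 12.1%. The lists were not matched to other genes by level, and their shares rest on few genes. These shares were 13.6% and 9.09% in the endothelial list and 5.26% and 15.8% in that of meningeal fibroblasts. In the pericyte and choroid plexus lists 22.2% and 11.8% were lower and 0% higher. Of 22 endothelial genes, 3 were higher, such as the glucose transporter Slc2a1 (0.23, or 0.14 without Nipbl+/- replicate 1) and the junction cadherin Cdh5 (0.16, or 0.10 with no call without Nipbl+/- replicate 1), and 2 lower, such as Prnd (-0.47, a call lost without Nipbl+/- replicate 1 or 2), with 1 and 0 called by edgeR without Nipbl+/- replicate 1 and 5 and 3 without Nipbl+/- replicate 2. Of 19 genes of meningeal fibroblasts, 1 was higher and 3 lower, led by the matrix protein Mgp (-0.65), and the lower count was 1 without WT replicate 2 or Nipbl+/- replicate 3. Of 9 pericyte genes, 2 were lower, such as Rgs5 (-0.27), while 6 of the 9 had a log2 fold change above 0 and the median was 0.07. Of 17 choroid plexus genes, 2 were lower, including the prolactin receptor Prlr (-0.69), and of 18 erythroid genes 1 was higher, a call that DESeq2 did not make, whereas 7 were lower without Nipbl+/- replicate 3. The ependymal list (10 genes) and the sensory ganglion list (7 genes) had 0 calls each by edgeR, with 1 gene each at an unadjusted P below 0.05, and DESeq2 called 0 and 1. Growth hormone (Gh), a marker of the anterior pituitary, was at 2110 normalized counts in WT replicate 2 and at most 22.2 in the other 7 libraries. Genes of bone and skin differed by library, for example the bone gene Ibsp with 41.2, 22.6, 119.8, 27.2 and 9.0 normalized counts in WT and 557, 15.6 and 83.7 in Nipbl+/- brains. Replicate 1 was highest there, and the groups overlapped. Of 24 Hox genes 0 were called by edgeR or DESeq2, with 1 at an unadjusted P below 0.05, but replicate 1 stood apart in them. Hoxb5 had 437, 490.5, 420.2, 463 and 589 normalized counts in WT and 35.8, 577 and 684 in Nipbl+/- brains, and without replicate 1 it was called higher (0.39, edgeR adjusted P = 0.0338). Whether the low caudal Hox level of replicate 1 has a part in the other results was not tested, and the counts without it are given above.

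Chromatin regulators had more genes called higher than lower. Of 59 histone-modifying enzymes, 18 were called higher and 2 lower (14 higher without Nipbl+/- replicate 1 and 12 within the low mt-Nd3 set), with a median of 0.05. Kdm6b, a demethylase that removes the repressive histone mark of Polycomb, had 5473, 5132, 5672, 5254 and 5614 normalized counts in WT and 6611, 6428 and 7173 in Nipbl+/- brains, a small rise with no overlap (log2 fold change 0.31, standard error 0.0427, edgeR adjusted P = 0.000296). Hdac7 rose by 0.23 and Ezh2, which deposits the mark that Kdm6b removes, by 0.30. Among 42 subunits of chromatin remodelling complexes, 16 were higher and 2 lower (median 0.06; 8 without Nipbl+/- replicate 1 and 5 within the libraries of few mt-Nd3 counts, and 9 without Nipbl+/- replicate 3 or WT replicate 4), including Smarcd3 (0.19), Arid1a (0.20) and Chd4 (0.19). Of 85 ribosomal protein genes, 79 were above 0, with a median of 0.06 that went to 0.01 without Nipbl+/- replicate 1. Relative to WT, the list medians of replicates 1, 2 and 3 were 0.17, 0.01 and 0.01, where single WT libraries reached 0.03. The test called 3 of them higher, but 16 higher without Nipbl+/- replicate 2, 8 without Nipbl+/- replicate 3, 1 without WT replicate 1, 2 or 3 and 0 by edgeR without WT replicate 5 or Nipbl+/- replicate 1.

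In growth and signalling pathways the calls were mixed. Of 73 Wnt pathway genes, 13 were higher and 9 lower (6 and 6 without Nipbl+/- replicate 1). The Wnt agonist Rspo2 had 257, 237, 240.5, 254 and 244 normalized counts in WT and 151, 167 and 141 in Nipbl+/- brains (log2 fold change -0.69, standard error 0.0872, edgeR adjusted P = 0.000137), while Axin2, a target of the pathway, rose by 0.17. In the insulin-like growth factor pathway Igf1 fell by 0.53 (edgeR adjusted P = 0.00112), and the RNA-binding proteins Igf2bp2 and Igf2bp1, which are typical of progenitors, rose by 0.44 and 0.34. Of 38 imprinted genes, 5 were higher, such as Magel2 (0.31) and Dlk1 (0.44), and 7 lower, such as Kcnk9, the calcitonin receptor Calcr (-0.57) and Zim1 (-0.39), and the lower count was 3 without WT replicate 1, WT replicate 5 or Nipbl+/- replicate 1 and 4 without WT replicate 2, and the higher count was 3 without WT replicate 2 or 4 and 11 without Nipbl+/- replicate 2. Of the stress programmes, the interferon list had 0 of 10 called by edgeR or DESeq2 and 1 at an unadjusted P below 0.05, the p53 list 1 higher and 1 lower of 13, and the hypoxia list 1 higher and 2 lower of 11, with Ndrg1 (-0.37) at the smallest P. Mitochondrial mRNAs had 5 of 13 called lower and none higher, but 0 by edgeR without WT replicate 4, without Nipbl+/- replicate 3 or within the low mt-Nd3 set, 1 without WT replicate 5 or Nipbl+/- replicate 1 and 2 without WT replicate 1.

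By size alone, again among called genes that reached 1 CPM and whose groups were separate, the leading increases after Dbx1 were mt-Tl2, a mitochondrial transfer RNA (1.21), the uncharacterized transcripts Gm35394, Gm44433, Gm9839 and 1700028E10Rik (0.81, 0.79, 0.75 and 0.68), Dmrt3, and 3 genes of the extracellular space. These were Mmrn1, a platelet and endothelial protein (0.73), Thbs4, an adhesive glycoprotein (0.68), and the matrix protease Mmp9. Mmp9 had 411, 469.9, 501, 401 and 477 normalized counts in WT and 787, 676 and 714 in Nipbl+/- brains (log2 fold change 0.68, standard error 0.0733, edgeR adjusted P = 4.27e-05). Leaving out single libraries ended the call of Gm9839 in 5 of 8 cases, and leaving out Nipbl+/- replicate 3 ended those of Gm35394 and Gm44433. After Cd163, Dmrt2 and Gpr37l1 the leading decreases were the signalling adaptor Shc3 (-1.41), the ubiquitin ligase adaptor Klhl11 (-1.31), the cation channel Trpc5 (-1.29), the thyrotropin receptor Tshr (-1.24) and the transcripts Gm16214 (-1.52), Gm45718 (-1.36) and Gm38384 (-1.24). Shc3 had 519, 608, 263, 374 and 507 normalized counts in WT and 109, 189.5 and 218 in Nipbl+/- brains (log2 fold change -1.41, standard error 0.223, edgeR adjusted P = 0.000786). The WT brains spread widely in Shc3, and the separation of its groups was a condition for naming it here.

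Genes called lower were longer than other genes, a property that the comparison did not use. The median annotated span of protein-coding genes called lower was 77.6 kb, against 17.4 kb for those called higher and 20.6 kb for those not called. Among protein-coding genes averaging at least 1 CPM, 5.72% of the 3320 genes of up to 10 kb were called lower, 27.2% of the 1292 genes of 100 to 200 kb, 43.0% of the 707 genes of 200 to 500 kb and 59.0% of the 210 genes over 500 kb. The share called higher went from 9.22% to 1.43% over the same range. Without Nipbl+/- replicate 1, 3.79% of the shortest and 41.0% of the longest genes were called lower, and 3.89% and 45.2% within the low mt-Nd3 set. The median log2 ratio of the longest genes to the WT mean was -0.28, -0.13 and -0.19 in Nipbl+/- replicates 1, 2 and 3, and 0.07, 0.01, -0.05, -0.04 and 0.00 in WT replicates 1 to 5, each against the other WT libraries. All 3 mutants were below all 5 WT brains, and unlike in the list of intermediate progenitors replicate 2 was outside the WT range. Genes in none of the lists used here showed the same gradient, from 3.89% lower for the shortest 2956 to 51.7% for the longest 145. The beta protocadherins lie outside this gradient, with a median span of 3.42 kb and 21 of 22 lower. Genes of intermediate progenitors, most of which were higher, are also short, with a median span of 3.02 kb. Long genes in brain are often neuronal and synaptic genes, and how much of the gradient goes with function was not tested beyond this.

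**Figure D5:**
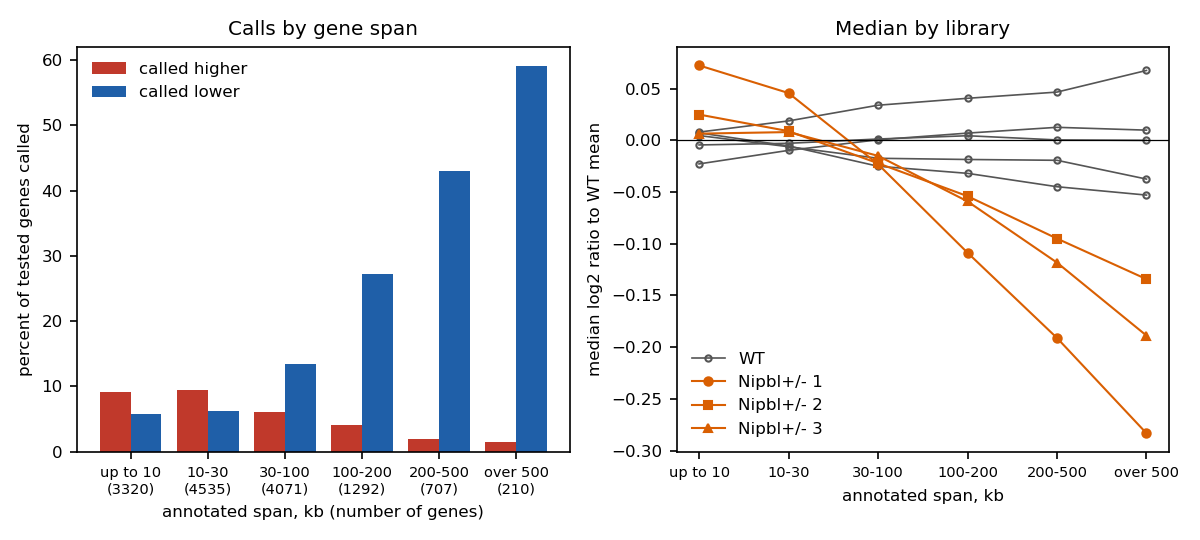
Left, percent of protein-coding genes averaging at least 1 CPM that were called higher (red) or lower (blue), by annotated gene span in kb, with the number of genes in parentheses. Right, median log2 ratio of each library to the mean of the WT libraries (of the other 4 for a WT library), where the 3 Nipbl+/- lines run down to -0.28, -0.13 and -0.19 at over 500 kb and the 5 WT lines end between -0.05 and 0.07.

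Calls were also counted by position. Within 10 Mb of Nipbl on either side, where linked sequence of the mutant chromosome could differ, 2 of 79 tested genes were higher and 16 lower, 22.8% in all, with a median log2 fold change of -0.09. Of all tested genes 11.2% were called. Among genes with at least 1 CPM, 7.23% were higher and 12.1% lower, and the 79 genes were not matched to others by level. Cdh6, Slc1a3 and Prlr, named above, lie in this interval. The largest change among its called genes was that of Plcxd3, with 114, 117, 79.5, 57.2 and 117 normalized counts in WT and 16.9, 22.4 and 58.3 in Nipbl+/- brains (-1.60). Among genes with at least 1 CPM, the share called lower ranged from 7.15% on chromosome 17 to 18.8% on chromosome 3 and stood at 24.1% on chromosome 18, which carries the clustered protocadherins. Without them it was 18.6% of 382 genes on chromosome 18, against 12.1% over all these chromosomes.

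The same Nipbl allele can be read a second time in libraries that took no part in the comparison above, by setting 6 double heterozygotes (Wapl heterozygous, Nipbl+/-) against 7 Wapl heterozygotes. Nipbl was lower there as well (log2 fold change -0.83, edgeR adjusted P = 1.37e-10). Far fewer genes were called, 311 of 30552 (1.02%), of which 63 were higher (0.206%) and 248 lower (0.812%). The groups were larger, but the study reports wide variation between its double heterozygotes. It also reports that most genes dysregulated in Nipbl+/- brains were at least partly rescued in double heterozygotes. Part of those genes, per the study, were also dysregulated in Wapl heterozygotes, almost always in the same direction. Whether any of these has a part in the smaller number of calls was not tested. DESeq2 called 626 there, and within the libraries of few mt-Nd3 counts edgeR called 24. That set holds only Wapl heterozygote replicates 1 and 2 and double heterozygote replicates 1 to 4. Of the 311, 199 (64.0% of the 311 and 5.82% of the 3422) were also called between Nipbl+/- and WT brains, all in the same direction, with 187 lower and 12 higher in both. Among all 3422 genes called against WT, 59.4% had the same sign in the Wapl heterozygous background, and their median log2 fold change in the original direction was 0.02 there against 0.24 in the comparison that chose them.

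Of the lists, the beta protocadherins had the most calls in Wapl heterozygotes. In that background 17 of 22 were lower on loss of Nipbl, with a median of -0.59 on the log2 scale, such as Pcdhb17 (-0.81), Pcdhb22 (-0.61) and Pcdhb20 (-0.66). Npy (-0.79), Dmrt2 (-1.22), Cd163 (-1.24), Htr1a (-0.52), Calcr (-0.62) and Rspo2 (-0.46) were called lower as well. Of the 25 neuropeptide genes, 5 were lower. In contrast, the non-clustered protocadherins had 0 calls by edgeR in that background, with 6 lower at an unadjusted P below 0.05 and a median of -0.15. The GABA-A receptor list had 0 calls (3 lower at an unadjusted P below 0.05, median -0.10), as had intermediate progenitors (0 at that P, median 0.02). Histone modifiers had 0 calls too, but 13 were higher and 0 lower at that P, and their median was 0.05 in both comparisons. Chromatin remodellers likewise had 0 calls, with 12 higher and 1 lower at that P and a median of 0.07 against 0.06 in the main comparison. Protein-coding genes over 500 kb that averaged at least 1 CPM had a median of -0.01 and 2.38% called lower. The share called lower was 4.81% at 200 to 500 kb (median -0.02) and 3.1% at 100 to 200 kb (median 0.0005). In the shorter bins it lay between 0.88% and 1.66%. A test of the difference between the backgrounds, as an interaction term over all 4 groups in edgeR, called 0 genes. Its smallest adjusted P was 0.2. An unadjusted P below 0.05 was reached by 4221 of the 30552 genes, a larger share than that cut-off gives by chance. For no single gene was the effect of Nipbl loss shown to differ between the backgrounds, nor were the effects shown to be equal.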

How the data were processed

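Whole-brain poly(A) RNA of female E17.5 embryos was sequenced, and the authors deposited 1 table of raw read counts per gene for 21 libraries. Per the submitters' processing notes, reads were trimmed with cutadapt 2.4, aligned with STAR 2.5.3a to mm10 (GRCm38) and counted with featureCounts of Subread 1.6.4. The annotation release, the strand setting and the treatment of reads shared by several genes are not given in the sources used here, and the near-equal rows of the alpha and gamma protocadherins show that reads on shared exons were counted for each gene. A sample that the authors excluded was not analysed here.

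Groups were taken from the labels. Counts were scaled by TMM over the libraries of a comparison, 30552 of 55335 genes were kept, those whose normalized counts reached a total of 10 over all 21 libraries, and groups were compared by edgeR's quasi-likelihood test (edgeR 4.0.16, R 4.3.3) with Benjamini-Hochberg adjustment over all tested genes. A gene was called at an adjusted P below 0.10, two-sided. Alternatives were DESeq2 1.42.0, its size factors, other filters, all 4 groups in 1 fit, a replicate block, libraries of few mt-Nd3 counts (under 20), leaving out each library, and leaving out genes within 10 Mb of Nipbl. Leaving out the libraries of extreme rRNA-like counts and the interaction test were added after seeing the data. The models were tested on simulated data with known changes.

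The text names the 10 called genes that rose most and the 10 that fell most, provided that they averaged 1 CPM or more and that the groups were separate, the 10 genes of smallest P, and, in each list, called members with the smallest P or, where a sentence says so, members chosen for their role. Hoxb5, Plcxd3, Pcdhb1, Pcdhb5 and Pcdhb21 fall outside this rule and were chosen after their values were seen. Some members of the lists are counted but not reported here by name. The comparison, the 62 gene lists and the tests were chosen with earlier results of these data known, so no list count is independent evidence. RefSeq symbols matched 24076 of the tested genes directly and 260 by synonym, and gene spans and positions come from that table (GRCm38.p6). Counting error is small for genes with high counts, but not for those with few reads in a library, such as Dmrt2, Gpr37l1 and Gm9839. The number of embryos also limits precision.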

Additional observations from a re-analysis of the deposited data

Results flagged for a closer look

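For genes named in the text and sums of library markers, the highest or lowest of the 5 WT libraries was set against the other 4 by Dixon's ratio, with a critical value of 0.71. Of 182 quantities tested, 14 passed, and chance passes about 1 in 20 such groups. Values are normalized counts, and the range of the other 4 WT libraries follows each. In WT replicate 1 the summed rRNA-like transcripts were at 46092 (227300 to 280100), Gm9839 at 10.8 (28.0 to 34.0), Pcdh10 at 6061 (5265 to 5491) and Cdh5 at 1303 (1344 to 1360). In WT replicate 2 Gh was at 2110 (0 to 1.96) and Mrc1 at 859 (724 to 759). In WT replicate 3 Ccnd1 was at 1645 (1564 to 1587), Mau2 at 4624 (4811 to 4879) and Pax7 at 407 (343 to 360.4). In WT replicate 4 Hopx was at 461.8 (409 to 422), Igf2bp2 at 765 (857 to 890.8) and Npy at 934 (809.8 to 845). In WT replicate 5 Gabra5 was at 1627 (1679 to 1695) and the sum of Hox genes of groups 1 to 3 at 1517 (1124 to 1208). For Pcdh10, Igf2bp2, Npy, Hopx and Gabra5 all 3 Nipbl+/- brains still lay on one side of all 5 WT brains.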

How the results depend on the processing

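The fall of Nipbl kept its direction and its call in every alternative that tested it (log2 fold change -0.95 to -0.84 when single libraries were left out). The 3422 calls of Nipbl+/- against WT became 1658 (758 higher, 900 lower) with all 4 groups in 1 fit, 1881 (548 higher, 1333 lower) in libraries of few mt-Nd3 counts, 1820 (611 higher, 1209 lower) without the libraries of extreme rRNA-like counts, an alternative chosen after seeing the data, and 1828 to 4788 without single libraries (672 to 1961 higher, 1156 to 2827 lower). The lowest counts were without Nipbl+/- replicate 1 and the highest without Nipbl+/- replicate 2. At an adjusted P below 0.05, 840 genes were higher. With a replicate block there were 1893 calls (488 higher, 1405 lower), but samples of the same number did not deviate together (correlations of 0.001, -0.03 and 0.063), so that the numbers do not pair them. DESeq2 (3504 calls) and other filters or size factors (3480 to 4092) changed the number by less than 1.5 times. Of the 156 called genes named in the text, 28 lost the call with all 4 groups in 1 fit, 21 without the libraries of extreme rRNA-like counts, 18 in libraries of few mt-Nd3 counts, 16 without Nipbl+/- replicate 1 and at most 13 in any other alternative, and 0 changed sign with a call. Hoxb5, not called in the comparison, ran from -0.63 to 0.39 without single libraries and was called at 0.39 without Nipbl+/- replicate 1. In Wapl heterozygotes the 311 calls became 626 with DESeq2, 576 with all 4 groups in 1 fit, 24 in libraries of few mt-Nd3 counts, 171 at an adjusted P below 0.05 and 163 to 449 without single libraries, with 163 to 203 without Wapl heterozygote replicate 3, 4 or 6 or double heterozygote replicate 1 or 4. The cause of these shifts was not tested. The comparison rests on 3 mutant brains, 1 of them apart in caudal Hox genes, and no litter, date or position of dissection could be entered in a fit.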
